A study of Homo sapiens with 6 samples.

Results

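The genes described here encode the parts of the adhesion that ties an epithelial cell to its basement membrane. They are 5 laminin chains (LAMA3, LAMB3, LAMA5, LAMB2 and LAMC1), both subunits of the hemidesmosome integrin (ITGB4 and ITGA6), the linker plectin (PLEC) and the tetraspanin CD151. Their rows were taken by exact gene symbol, and all 9 had a row among the 22258 symbols of the deposited table. Laminins are secreted trimers of an alpha, a beta and a gamma chain. The alpha3 and beta3 chains belong to the classical laminin ligand of hemidesmosomes, while LAMA5 joins LAMB1 or LAMB2 and LAMC1 in laminins of most adult epithelial basement membranes, the colon included. Integrin alpha6beta4, made of the ITGA6 and ITGB4 products, binds laminin outside the cell, and the long cytoplasmic tail of its beta4 subunit binds plectin, which holds keratin filaments. CD151 associates with the laminin-binding integrins.

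The cells were SW480, a human colon cancer line with truncated APC, with no treatment according to the labels. The KD group held 3 samples labelled as ALDH1B1 knockdown, and the control group 3 samples labelled WT and named SCR, each numbered 4, 5 and 6. ALDH1B1 is a mitochondrial aldehyde dehydrogenase, and the series asks what role it has in these cells. The labels mention trypsin-EDTA in the extraction notes, and they do not say how the knockdown was made, whether it is 1 clone or whether each replicate is a culture of its own. The p-values here therefore reflect the spread among the samples sequenced, part or all of which may be technical. Those from limma also draw on the spread of other genes of similar level.

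Strand-specific libraries of total RNA gave values in RPM, which are reads scaled to a common sequencing depth, at a depth of about 20340000 to 26150000 reads in KD samples and 21070000 to 28570000 in control samples. ALDH1B1 had 19.99, 20.4 and 23.2 RPM in KD samples 4, 5 and 6, against 34.1, 39.6 and 36.7 RPM in control samples (log2 fold change -0.80, limma adjusted p = 2.37e-07). For the same 6 values an exact permutation test, two-sided, returned p = 0.1, the lowest value open to 3 samples against 3. Of 10 colon epithelial markers, EPCAM, CDH1, VIL1 and CDX2 passed the filter on low values, LGALS4, GPA33 and KRT20 were under it, and CDH17, CDX1 and CEACAM5 had no row. These markers did not move together: EPCAM, CDH1 and VIL1 rose by 0.90, 1.98 and 1.90 on the log2 scale, while CDX2 fell to 58.995% of control (log2 fold change -0.76, limma adjusted p = 2.29e-07). Their summed level was 304 to 323 RPM in KD and 170.4 to 191 RPM in control samples and was mostly EPCAM, with a mean of 206 RPM in KD and 110.4 RPM in control samples. The part of these differences in the values below was not tested. Fibroblast, endothelial and leukocyte markers were low, with sums of 5.37 to 7.03, 1.57 to 1.72 and 1.96 to 2.66 RPM in KD samples. In control samples the sums were 4.18 to 5.74, 1.78 to 1.94 and 2.31 to 3.53 RPM. Rows were present for 3 of 10, 3 of 8 and 5 of 9 of these markers, and among those with none were COL1A2, DCN, PECAM1, CDH5, PTPRC and CD3E. Of those with a row, THY1 was under the floor of 3 reads in every sample. Of 8 markers of stratified epithelium, TP63, KRT14 and DSG3 had no row, and the sum of 2991 to 3399 RPM in KD and 2463 to 2724 RPM in control samples was almost entirely KRT5. These also moved apart: KRT5 and KRT15 rose (log2 fold changes 0.28 and 0.98) and KRT6A fell (-0.87). DSC3 and COL17A1 were under the filter.

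The ITGB4, LAMB2, LAMA5, LAMB3 and LAMA3 transcripts were higher in KD cells, and ITGA6, LAMC1 and CD151 were lower. Only RNA was measured in these samples, so amounts of protein, of integrin dimers and of laminin trimers are not known from them. All 9 genes were tested, since each had a mean above 0.688 RPM, and 8 passed an adjusted p of 0.05, of which 5 rose and 3 fell. Among all 15496 genes tested, 41.8% passed in either direction, 22.6% rose and 19.2% fell. The groups did not overlap for 8 of the 9 genes, against 51% of all genes tested. The median absolute log2 fold change was 0.56 for the 9 genes and 0.24 for all genes tested. The 9 genes and the related lists below were chosen with earlier results of these data known. Setting them beside all genes is therefore description and no test. In bulk RNA, fewer cells that express a gene and less of its RNA per cell cannot be told apart. In each of the 9 genes, whether it rose or fell, KD sample 6 was the highest KD sample. In all but CD151, control sample 6 was the lowest control sample. Median-of-ratios scaling factors were highest in KD sample 6 (1.05) and lowest in control sample 6 (0.950). Control sample 6 also had the smallest share of its depth on listed genes, 65.1% against 67.2% to 71.1% in the other samples, and its part in these values was not tested. Without control sample 6, the 5 genes that rose had log2 fold changes of 0.48 (LAMA3) to 0.98 (ITGB4), and all 5 still passed.

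**Figure D1:**
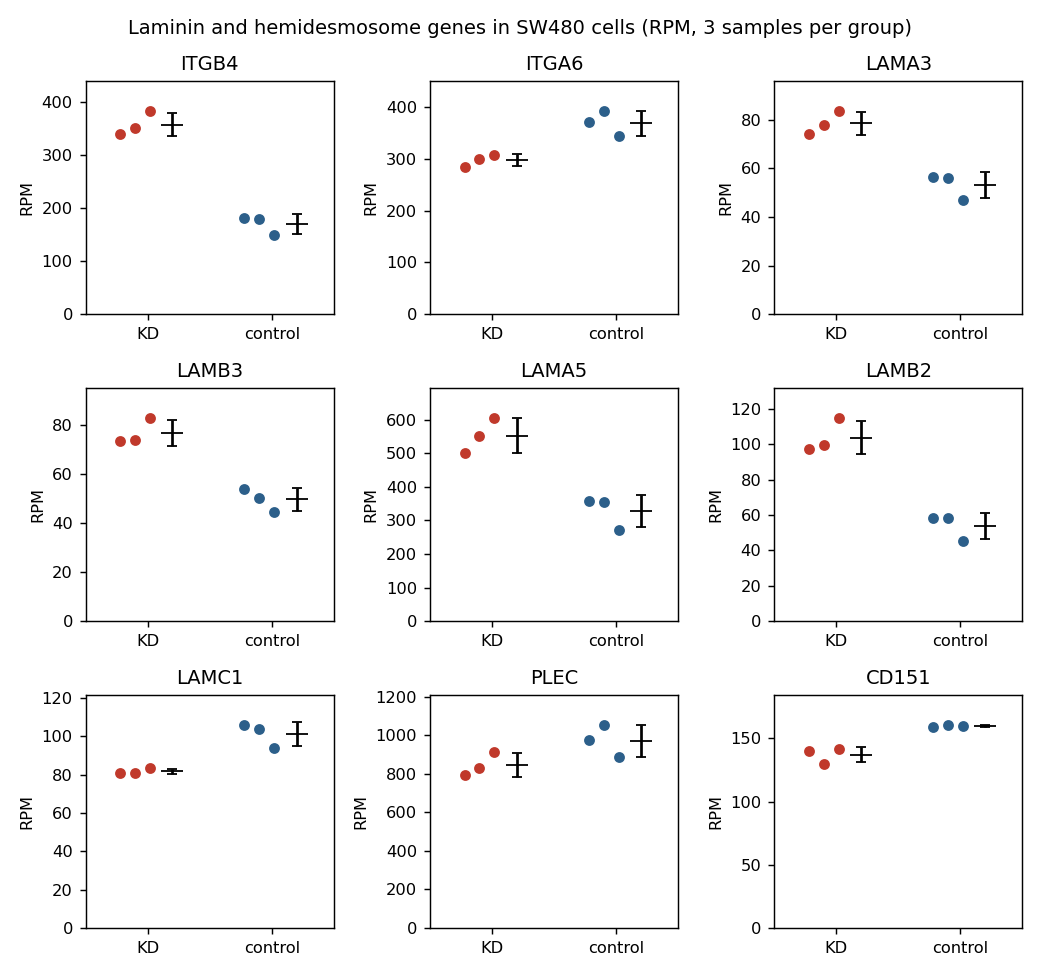
RPM of the 9 genes in each of 3 KD samples (red, left) and 3 control samples (blue, right), with the mean and SD as a black bar beside the points. The y axis starts at 0, and only PLEC shows overlap between the groups.

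The transcripts of the 2 subunits of the hemidesmosome integrin changed in opposite directions. ITGB4, whose beta4 product carries the plectin-binding tail, had 339, 351 and 382 RPM in KD samples 4, 5 and 6, against 181, 180.2 and 149 RPM in control samples. Every KD sample was above every control sample, with 357 ± 22.2 RPM in KD and 170.1 ± 17.9 RPM in control (SD, n = 3 each), a fold change of 2.11. ITGB4 rose by 1.07 on the log2 scale (SE 0.0816, limma adjusted p = 1.71e-10), and 94.97% of tested genes had a smaller absolute change. The table names no genome build, and its coordinates are not those of GRCh38. In them ITGB4 spans 73717408 to 73753900 on chromosome 17. ITGA6, whose alpha6 product pairs with beta4 or with beta1, had 285, 300.4 and 307 RPM in KD samples, against 370.1, 391 and 344 RPM in control samples. All KD values were below all control values, and the gene fell to 80.8% of control (log2 fold change -0.31, SE 0.0750, limma adjusted p = 0.00184). ITGA6 lies on chromosome 2, from 173292082 to 173371182. These values rest on 3514 to 10575 reads per sample for the 2 genes, so counting error was small beside the spread between samples.

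The balance of the ITGB4 and ITGA6 transcripts was compared within each sample, since such a ratio does not depend on how a sample was scaled. These genes differ in length, so the ratio can show a difference between groups but not which transcript was more abundant. The ratio of ITGB4 to ITGA6 RPM was 1.19, 1.17 and 1.24 in KD samples, against 0.488, 0.460 and 0.435 in control samples. The ratio was higher in every KD sample than in any control sample, with a 2.61-fold difference. An exact two-sided permutation test gave p = 0.1, the smallest possible with 3 against 3 samples, and 0.143 after adjustment over the 10 ratios examined. ITGB1, the other beta partner of alpha6, had 114, 105 and 104 RPM in KD samples, against 133, 130.1 and 113 RPM in control samples. It fell by 0.21 on the log2 scale (limma adjusted p = 0.0332) although the groups overlapped, and the call was lost under 8 of 16 alternatives. The ratio of ITGB1 to ITGA6 was 0.363 ± 0.0330 in KD and 0.340 ± 0.0167 in control samples (SD, n = 3 each) and overlapped between the groups (exact permutation p = 0.4).

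ITGA3, whose alpha3 product pairs with beta1 to form another receptor of epithelial laminins, is next to ITGA6 in function. It had 249, 249.997 and 274 RPM in KD samples, against 166, 169 and 132 RPM in control samples, and rose by 0.73 (SE 0.0858, limma adjusted p = 2.54e-07). The groups did not overlap. The ratio of ITGA3 to ITGA6 was 0.866 ± 0.0311 in KD and 0.422 ± 0.0338 in control samples (SD, n = 3 each), a 2.06-fold difference (exact permutation p = 0.1, adjusted over ratios 0.143).

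For the partners of the integrin, CD151 fell and PLEC did not pass the threshold. PLEC, the plakin that links beta4 to keratin, had 794, 831 and 914 RPM in KD samples, against 976, 1053 and 886 RPM in control samples. KD sample 6 lay above control sample 6, so the groups overlapped. The log2 fold change of -0.20 (SE 0.0838) missed the threshold in the limma test (adjusted p = 0.0600), and PLEC passed under 6 of 16 alternatives, among them without KD replicate 6 (-0.25, adjusted p = 0.0225) and without control replicate 6 (-0.26, adjusted p = 0.0109). PLEC is on chromosome 8, from 144989321 to 145050903 in the table's coordinates, with a second row on a patch contig that holds identical values. The ratio of PLEC to ITGB4 RPM was 2.34, 2.37 and 2.39 in KD samples, against 5.40, 5.84 and 5.93 in control samples. The KD ratio was 0.414 times the control ratio, with no overlap (exact permutation p = 0.1, adjusted over ratios 0.143).

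CD151, the tetraspanin that holds alpha3beta1 and alpha6 integrins in membrane complexes, had 139.98, 130.02 and 142 RPM in KD samples, against 159, 161 and 159.5 RPM in control samples. The control samples were close together and all lay above the KD samples. CD151 fell to 85.9% of control (log2 fold change -0.22, SE 0.0723, limma adjusted p = 0.0166). This call was lost under 5 of 16 alternatives, including without KD replicate 5 (-0.18, adjusted p = 0.104) and without control replicate 4 (-0.22, adjusted p = 0.0531). The ratio of CD151 to ITGA6 was 0.462 ± 0.0296 in KD and 0.435 ± 0.0274 in control samples (SD, n = 3 each), with overlapping groups (exact permutation p = 0.3). CD151 lies on chromosome 11 from 832843 to 839832 and overlaps POLR2L on the other strand, which had 46.5 RPM in KD and 48.2 RPM in control samples on average.

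**Figure D2:**
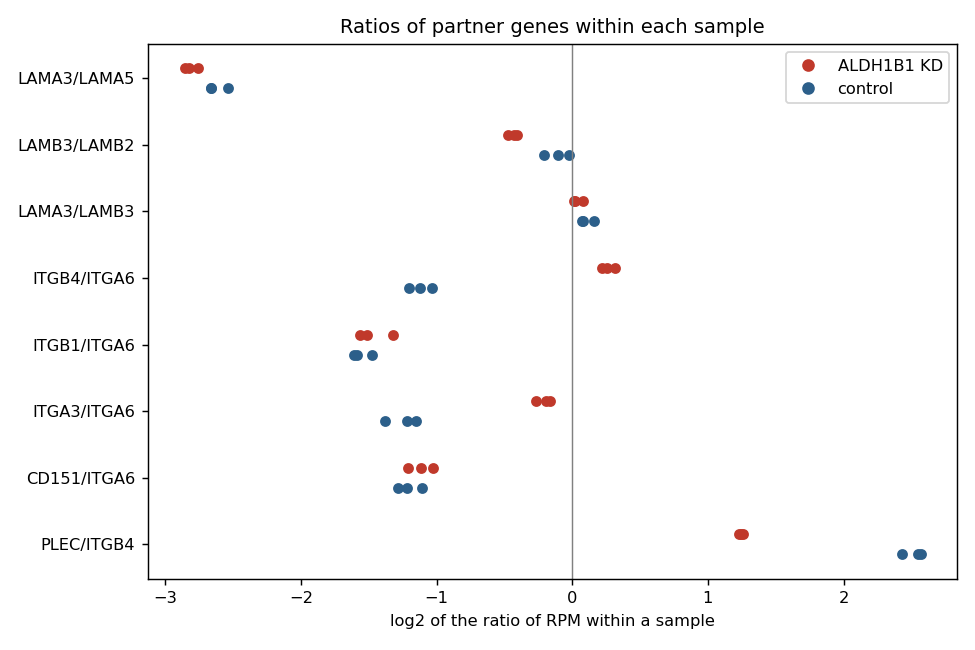
Log2 of the RPM ratio of partner genes within each sample, with 3 KD samples (red, upper row of each pair) and 3 control samples (blue, lower row). RPM was not corrected for length, so the sign of a log2 ratio does not show which gene had the higher level. ITGB4/ITGA6 has a mean log2 ratio of 0.26 in the KD samples and -1.12 in the control samples, while LAMA3/LAMB3, ITGB1/ITGA6 and CD151/ITGA6 overlap between the groups.

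The transcripts of the alpha3 and beta3 chains of the hemidesmosome laminin rose. LAMA3 (chromosome 18, 21269407 to 21535031) had 74.2, 77.8 and 83.4 RPM in KD samples, against 56.5, 56.1 and 47.0 RPM in control samples. All KD values were above all control values, and LAMA3 rose by 0.56 on the log2 scale (SE 0.0847, limma adjusted p = 8.73e-06). LAMB3 (chromosome 1, 209788215 to 209825812) had 73.4, 73.6 and 82.6 RPM in KD samples, against 53.9, 50.3 and 44.6 RPM in control samples. It rose by 0.63 (SE 0.0846, limma adjusted p = 2.07e-06), again with no overlap. The ratio of LAMA3 to LAMB3 overlapped between the groups, with 1.03 ± 0.0263 in KD and 1.07 ± 0.0368 in control samples (SD, n = 3 each, exact permutation p = 0.3).

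Because LAMA3 and LAMB3 rose together, RefSeq windows at their transcript starts (GRCh38.p14, 250 bases before to 50 after the start, on the strand of the gene) are shown with letters matching 3 motifs in capitals. The motifs, searched on both strands, were the AP-1 motif TGANTCA, the E-box CAGGTG that SNAI and ZEB repressors bind, and the GC box GGGCGG. LAMA3 has 1 window, chr18:23872770-23873069 on the plus strand, at the start of its shorter transcripts, 183567 bases inside the gene. LAMB3 has 3 windows on the minus strand, of which the first, chr1:209652376-209652675, is at the start of the gene and the innermost, chr1:209651325-209651624, begins 1051 bases further in.
LAMA3: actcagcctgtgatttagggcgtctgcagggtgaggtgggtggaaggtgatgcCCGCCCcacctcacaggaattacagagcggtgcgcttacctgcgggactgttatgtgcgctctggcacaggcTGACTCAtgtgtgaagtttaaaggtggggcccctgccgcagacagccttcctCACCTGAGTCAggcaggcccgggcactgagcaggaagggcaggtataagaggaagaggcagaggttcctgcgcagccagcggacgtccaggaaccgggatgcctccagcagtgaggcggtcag
LAMB3 first start: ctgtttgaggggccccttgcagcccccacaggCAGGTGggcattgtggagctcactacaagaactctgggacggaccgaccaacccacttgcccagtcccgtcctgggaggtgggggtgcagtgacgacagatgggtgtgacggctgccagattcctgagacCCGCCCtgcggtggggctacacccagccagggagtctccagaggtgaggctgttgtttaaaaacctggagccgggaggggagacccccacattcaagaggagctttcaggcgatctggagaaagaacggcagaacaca
LAMB3 innermost start: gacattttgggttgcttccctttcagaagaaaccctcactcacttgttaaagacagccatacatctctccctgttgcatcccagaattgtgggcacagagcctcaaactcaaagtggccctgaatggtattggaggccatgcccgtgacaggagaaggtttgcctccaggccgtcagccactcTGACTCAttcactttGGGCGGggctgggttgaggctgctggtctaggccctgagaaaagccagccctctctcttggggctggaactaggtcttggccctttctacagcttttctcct
The LAMA3 window holds 2 AP-1 matches, 125 and 69 bases before the start, and an E-box match 73 bases before it that overlaps the second AP-1 match. The innermost LAMB3 window holds an AP-1 match 67 bases before the start, the first holds an E-box match 218 bases before it, and each holds a GC box. The remaining LAMB3 window, not printed, holds a GC box but neither the AP-1 nor the E-box letters. Among all 35116 RefSeq windows of this length, 7.71% hold the AP-1 motif, 20.6% the E-box and 44.95% the GC box. A match is a description of the letters and no evidence of binding.

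Among the chains of the LAMA5 laminins, the alpha5 and beta2 transcripts rose while the gamma1 transcript fell. LAMA5 (chromosome 20, 60883011 to 60942369) had 501, 552 and 605 RPM in KD samples, against 357, 355 and 272 RPM in control samples. The groups were well apart, with a log2 fold change of 0.76 (SE 0.0930, limma adjusted p = 5.06e-07). ADRM1, which overlaps LAMA5 on the other strand, changed the other way, with 123.7 RPM in KD and 168 RPM in control samples on average (log2 fold change -0.44, limma adjusted p = 0.000108). LAMB2, the beta2 chain (chromosome 3, 49158547 to 49170552), had 97.3, 99.2 and 115 RPM in KD samples, against 58.04, 57.9995 and 45.3 RPM in control samples, a fold change of 1.94. All KD values exceeded all control values (log2 fold change 0.95, SE 0.0926, limma adjusted p = 1.28e-08). LAMC1, the gamma1 chain shared by most laminins (chromosome 1, 182992595 to 183114728), had 80.7, 80.8 and 83.3 RPM in KD samples, against 106, 104 and 93.9 RPM in control samples. It fell to 80.7% of control without overlap (log2 fold change -0.31, SE 0.0758, limma adjusted p = 0.00194). LAMB1, the beta1 chain that can take the place of beta2, had 28.1 ± 2.25 RPM in KD and 29.8 ± 3.81 RPM in control samples (SD, n = 3 each), with overlapping groups (log2 fold change -0.08, limma adjusted p = 0.518).

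Transcripts of chains of the same class were also set against each other within samples, in RPM with no correction for length. The ratio of LAMB3 to LAMB2 was 0.739 ± 0.0171 in KD and 0.927 ± 0.0591 in control samples, and that of LAMA3 to LAMA5 was 0.142 ± 0.00515 in KD and 0.163 ± 0.00838 in control samples (SD, n = 3 each). Both were lower in every KD sample than in any control sample. Both ratios gave the smallest exact permutation p possible, 0.1, and 0.143 adjusted over the 10 ratios. Of the other laminin chains, LAMA1, LAMA2 and LAMC3 were below the filter, with means of 0.0644, 0.151 and 0.211 RPM in KD and 0.286, 0.364 and 0.115 RPM in control samples, and LAMA4 and LAMB4 had no row.

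The LAMB2 and LAMC1 starts are shown as those of a chain whose transcript rose and of a partner whose transcript fell. The same motifs are in capitals. The LAMB2 window is chr3:49133001-49133300 on the minus strand, and the LAMC1 window chr1:183023170-183023469 on the plus strand.
LAMB2: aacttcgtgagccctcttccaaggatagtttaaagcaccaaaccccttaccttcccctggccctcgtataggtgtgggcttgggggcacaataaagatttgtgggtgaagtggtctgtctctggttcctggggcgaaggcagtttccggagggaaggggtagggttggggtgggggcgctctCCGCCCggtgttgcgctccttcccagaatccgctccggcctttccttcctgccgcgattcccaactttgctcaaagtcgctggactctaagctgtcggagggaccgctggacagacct
LAMC1: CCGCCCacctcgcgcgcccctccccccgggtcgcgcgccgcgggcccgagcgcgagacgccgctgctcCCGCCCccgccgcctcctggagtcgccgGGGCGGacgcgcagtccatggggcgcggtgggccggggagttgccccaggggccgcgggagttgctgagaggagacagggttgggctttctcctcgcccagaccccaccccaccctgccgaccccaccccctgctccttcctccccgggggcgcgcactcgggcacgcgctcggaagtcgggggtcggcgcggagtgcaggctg
Neither window holds the AP-1 or E-box letters. LAMB2 has 1 GC box and a G+C content of 58.7%, and LAMC1 has 3 GC boxes and a G+C content of 79%. The LAMA5 window, not printed, has 5 GC boxes and 1 E-box, and the first of the 2 ITGA6 windows has 2 E-box matches.

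The ratios above are of RPM with no correction for length, so they do not order the genes. The order of levels was read only from RPM per kb of the longest coding sequence in GENCODE 29. This length leaves out untranslated regions, so the order of genes may differ with full transcript lengths, which were not used. Per kb of coding sequence, CD151 was the highest, with 181 ± 8.33 in KD and 210.5 ± 0.965 in control samples (SD, n = 3 each). In KD samples ITGA6 followed with 87.7 ± 3.41, then ITGA3 with 80.5 ± 4.504, ITGB4 with 65.4 ± 4.07, PLEC with 60.2 ± 4.395 and LAMA5 with 49.9 ± 4.65 RPM per kb. The ranges of ITGA6 and ITGA3 overlapped, as did those of ITGB4 and PLEC. In control samples ITGA6 had 108.7 ± 7.06, PLEC 69.1 ± 5.93, ITGB1 52.1 ± 4.56, ITGA3 48.7 ± 6.43, ITGB4 31.1 ± 3.28 and LAMA5 29.6 ± 4.35 RPM per kb, and the ranges overlapped for ITGB1 with ITGA3 and for ITGB4 with LAMA5. ITGB4 thus had rank 4 of the 15 genes compared in KD samples and rank 6 in control samples.

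Among the chains shown, LAMA5 was the most abundant transcript per length in both groups. In KD samples it was followed by LAMB3 (21.8 ± 1.49), LAMB2 (19.2 ± 1.76), LAMC1 (16.9 ± 0.304), LAMA3 (7.85 ± 0.464) and LAMB1 (5.17 ± 0.414 RPM per kb), and only LAMB3 and LAMB2 overlapped as neighbours. In control samples the order was LAMC1 (20.97 ± 1.32), LAMB3 (14.1 ± 1.33), LAMB2 (9.97 ± 1.36), LAMB1 (5.497 ± 0.702) and LAMA3 (5.32 ± 0.534 RPM per kb), and only LAMB1 and LAMA3 overlapped as neighbours. Per kb of coding sequence, LAMC1 was therefore below LAMB3 and LAMB2 in KD samples and above both in control samples. With other lengths for these genes the order may differ. The place of LAMA3 depends on which transcript is counted: with a coding length of 5172 bases in place of 9999, its level was 15.2 ± 0.897 in KD and 10.3 ± 1.03 RPM per kb in control samples. The table does not separate transcripts.

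**Figure D3:**
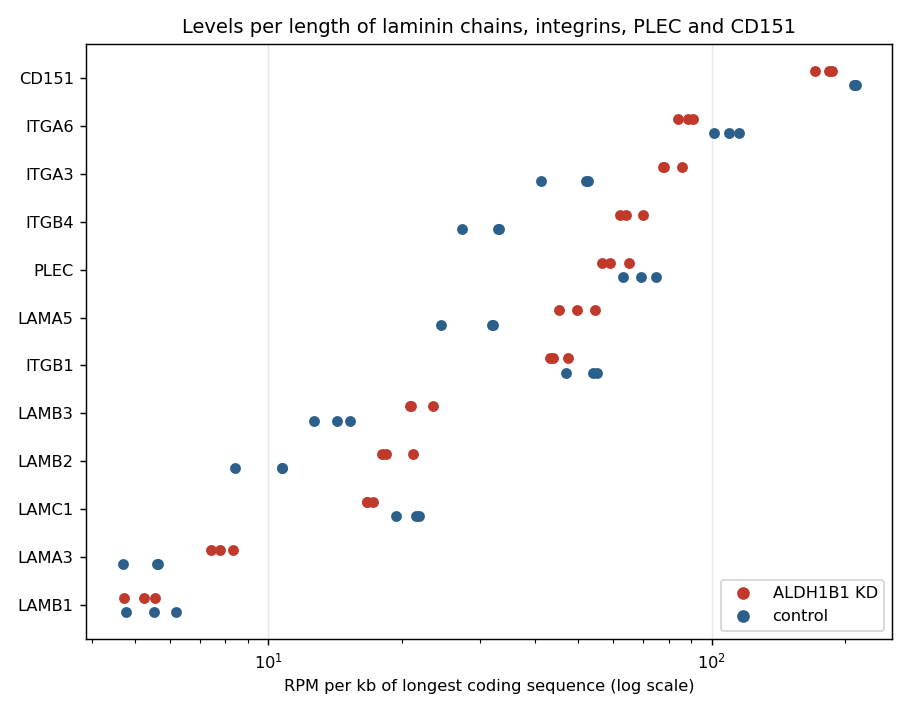
RPM per kb of the longest coding sequence, on a log axis, for 12 laminin, integrin and linker genes, with 3 KD samples (red, upper row) and 3 control samples (blue, lower row). LAMA5 lies right of the other laminin chains plotted in both groups, and LAMC1 lies left of LAMB3 and LAMB2 in KD samples only.

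Of 10 other laminin receptors tested, 6 rose and 2 fell, where 22.6% of all genes tested rose and 19.2% fell. The list's median log2 fold change was 0.26, against 0.000668 over all genes tested. ITGA7, whose alpha7 product is a laminin receptor best known in muscle, rose by 1.20 to 70.8 ± 4.14 RPM in KD samples, against 31.1 ± 5.24 RPM in control samples (SD, n = 3 each, limma adjusted p = 7.93e-10). BCAM, the Lutheran antigen that binds the alpha5 chain, rose by 0.84 to 87.8 ± 5.44 RPM in KD samples, against 49.1 ± 3.45 RPM in control samples (SD, n = 3 each, limma adjusted p = 1.15e-08). The syndecans SDC1 and SDC4 rose by 0.32 and 0.33, and RPSA, also a ribosomal protein, rose by 0.20, a call lost under 6 of 16 alternatives. ITGA1, a receptor for collagens and laminin, fell by 0.70 on the log2 scale, whereas dystroglycan DAG1 (0.15, limma adjusted p = 0.156) and ITGA2 (0.15, limma adjusted p = 0.222) did not pass.

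The other hemidesmosome and plakin genes were split, with 2 of 6 tested that rose and 2 that fell. Among all genes tested, 22.6% rose and 19.2% fell. DST, whose epithelial form is the BP230 plakin of hemidesmosomes, had 29.7, 31.1 and 31.8 RPM in KD samples, against 38.5, 39.6 and 39.1 RPM in control samples, and fell by 0.34 on the log2 scale (limma adjusted p = 0.00171). The gene also makes neuronal and muscle forms, which the table does not separate. COL17A1, the transmembrane collagen BP180 of mature hemidesmosomes, had only 0.285, 0.344 and 0.344 RPM in KD samples, against 0.140, 0.0948 and 0.212 RPM in control samples, and was not tested. The desmosomal plakin DSP fell by 0.31 (lost without a variance trend), the cornified-envelope plakin EVPL rose by 0.80 and EPPK1 by 0.44, the last call being lost without KD replicate 5 (0.37, adjusted p = 0.0610). Of 5 keratins tested, KRT5 and KRT7 rose and 0 fell, beside the same shares of all genes (22.6% and 19.2%). KRT7 was low, with means of 2.17 RPM in KD and 1.23 RPM in control samples. Its log2 fold change of 0.82 was 0.51 on the log2(RPM + 1) scale. KRT18 had a log2 fold change of 0.18 (limma adjusted p = 0.0969). KRT5 rose by 0.28, a call lost without KD replicate 6 (0.23) or control replicate 6 (0.24) and under the replicate block.

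Basement membrane partners of laminin with a mean over the filter in both groups numbered 8, of which 5 rose and 0 fell, against 22.6% and 19.2% of all genes tested, and their median log2 fold change was 0.33. COL4A3, which reached the filter in KD samples alone, is not in this count. COL7A1, the anchoring fibril collagen beneath hemidesmosomes, had 12.2, 11.4 and 12.1 RPM in KD samples, against 6.44, 4.93 and 4.04 RPM in control samples, and rose by 1.24 (SE 0.144, limma adjusted p = 2.37e-07). COL18A1, a basement membrane collagen, rose by 0.76 to 294 ± 15.8 RPM in KD samples, against 176 ± 32.5 RPM in control samples (SD, n = 3 each), and COL4A2 rose by 0.38. The laminin-binding proteoglycan AGRN rose by 0.28. This call was lost without control replicate 6 (0.17, limma adjusted p = 0.0704) and without a variance trend (limma adjusted p = 0.108). Perlecan HSPG2 did not pass (-0.11, limma adjusted p = 0.330). Among proteases that cut laminin chains, 0 of 3 tested rose and 1 fell: MMP14, a membrane-anchored metalloprotease, had 53.0 ± 2.58 RPM in KD and 72.6 ± 4.76 RPM in control samples (SD, n = 3 each), or -0.45 on the log2 scale. Of 13 other tetraspanins tested, 5 rose and 1 fell. CD82 rose by 0.68, TSPAN1 by 0.96 and TSPAN15 by 0.99, while CD63 fell by 0.19 on the log2 scale, a call lost under 8 of 16 alternatives. Over the 7 lists, and without COL4A3, 20 of 46 genes rose and 6 fell, against 22.6% and 19.2% of all genes tested.

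**Figure D4:**
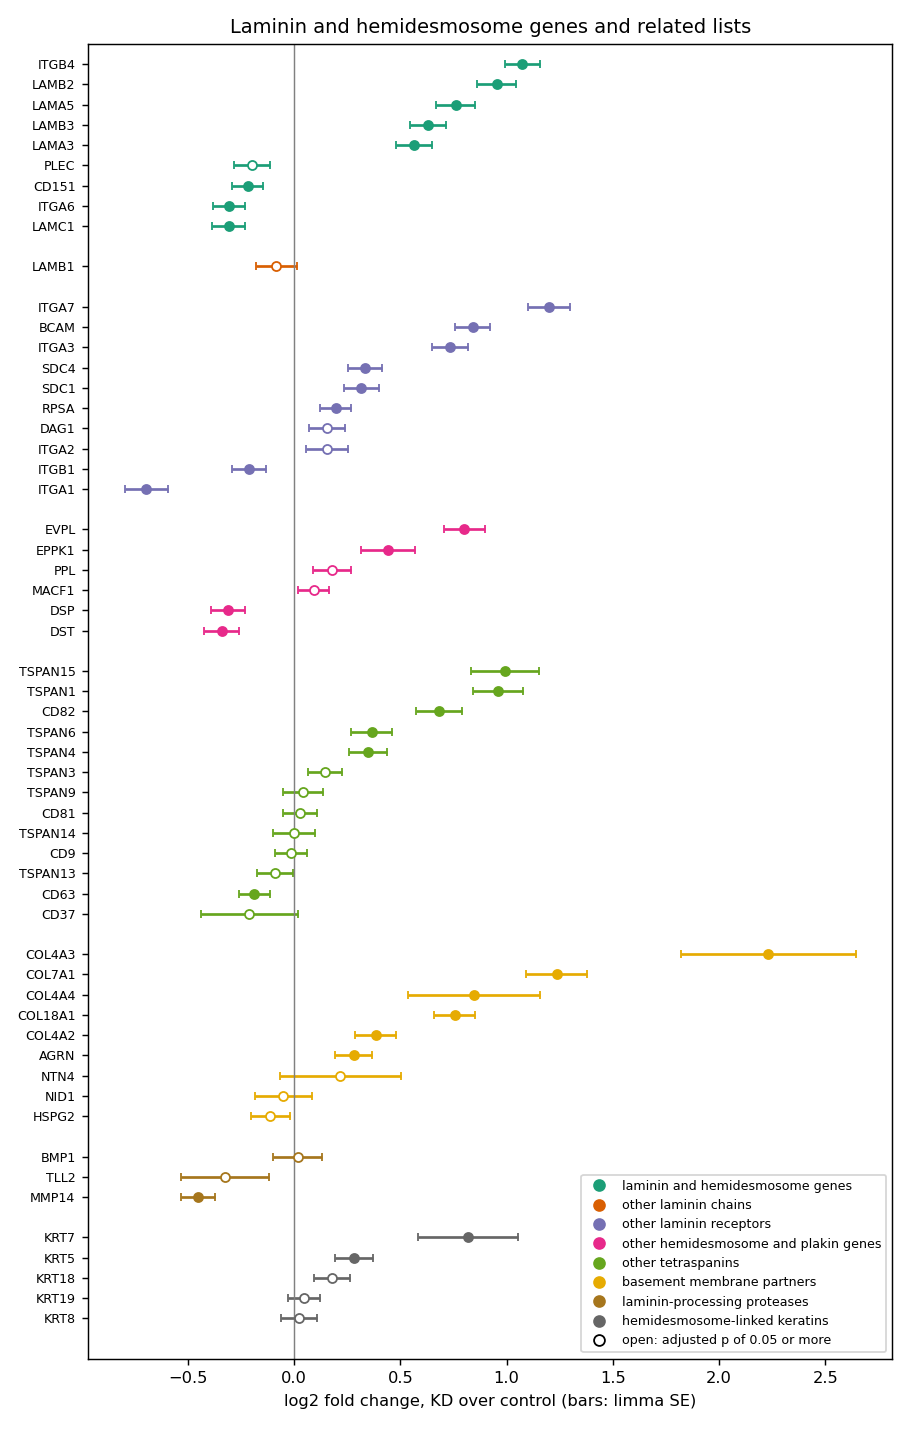
Log2 fold change, KD over control, with limma's SE, for the 9 genes and the tested genes of 7 related lists, in groups by colour. Filled points passed an adjusted p of 0.05, and the points run from -0.70 (ITGA1) to 1.24 (COL7A1), apart from COL4A3 at 2.23. COL4A3 had 1.39 RPM in KD and 0.283 RPM in control samples on average, so it passed the filter through KD samples alone, and its value was 0.87 on the log2(RPM + 1) scale.

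To see whether genes nearby moved the same way, the tested genes within 2 Mb of each of the 9 were counted. Among all genes tested, 22.6% rose and 19.2% fell. Around LAMB2, 44 of 76 neighbours rose and 1 fell, their median log2 fold change was 0.35, and 12 of the 76 had a larger log2 fold change than LAMB2. Around ITGB4, 30 of 76 rose and 8 fell, with a median of 0.19, and 7 were above ITGB4. Around LAMA5, 20 of 57 rose and 9 fell, with a median of 0.16 that was 0.00349 within 1 Mb. Around LAMA3, 0 of 15 neighbours rose and 5 fell, and around LAMB3, 1 of 18 rose and 0 fell, with a median of 0.10. The LAMB3 counts depended on the window: within 5 Mb, 10 of 64 rose and 12 fell, with a median of 0.00424. Within 2 Mb, LAMA3 and LAMB3 each had 1 neighbour with a larger log2 fold change. Around ITGA6, 8 of 31 neighbours rose and 8 fell, and around LAMC1, 4 of 25 rose and 6 fell. Around PLEC, 11 of 53 rose and 6 fell, and around CD151, 20 of 64 rose and 12 fell. The medians around ITGA6, LAMC1, PLEC and CD151 were 0.03, -0.11, -0.00186 and 0.10, with 4 of 31, 5 of 25, 11 of 53 and 13 of 64 neighbours below the gene. That of ITGA6 depended on the window, at -0.08 within 1 Mb and -0.05 within 5 Mb. The neighbour counts share genes with the related lists: COL7A1 and DAG1 lie near LAMB2, EVPL near ITGB4, and CD81 and TSPAN4 near CD151. The part of chromosome position in the values of LAMB2, ITGB4, LAMA5, COL7A1 and EVPL was not tested.

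**Figure D5:**
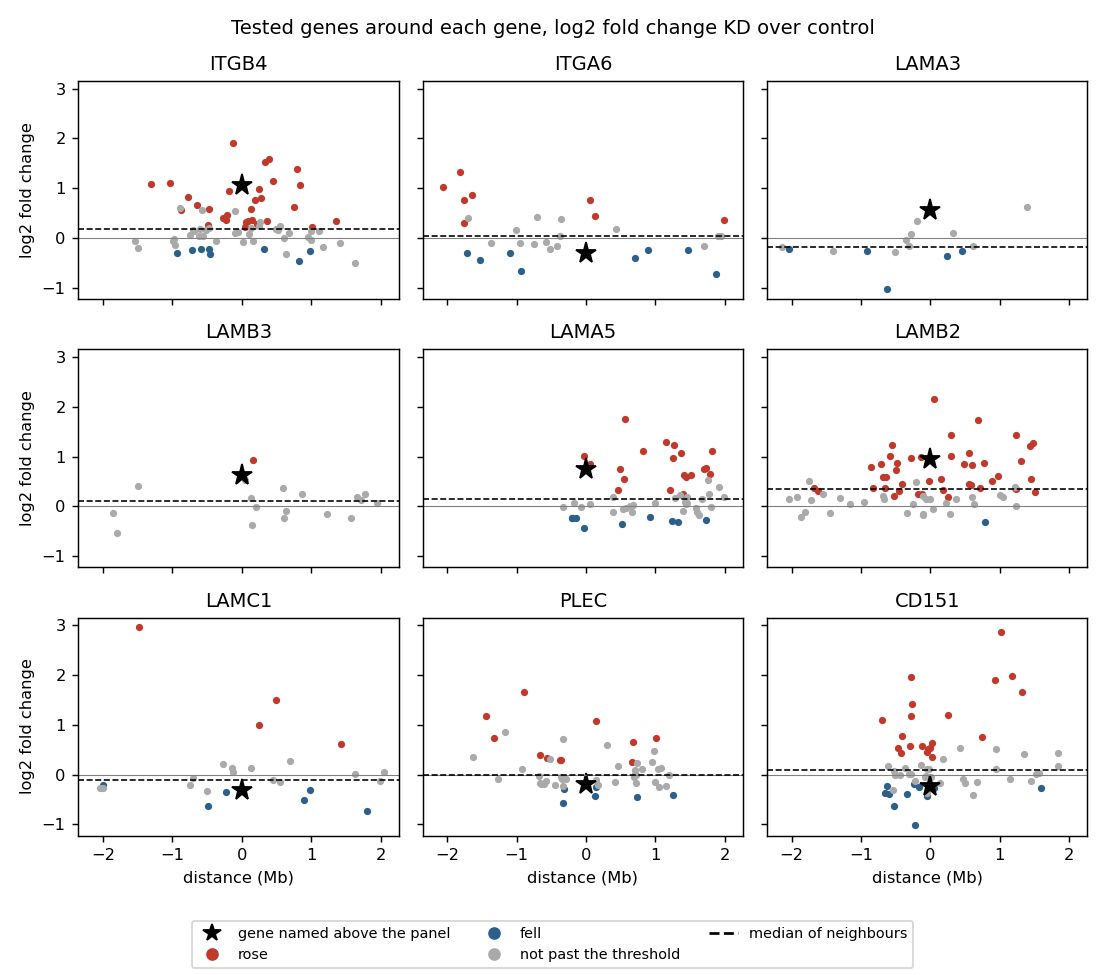
Log2 fold change, KD over control, of the tested genes within 2 Mb of each of the 9 genes, against their distance from it in Mb. Stars mark the 9 genes, red points genes that rose, blue points genes that fell and dashed lines the median of the neighbours, which is highest around LAMB2 (0.35).

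Across the 6 samples, the genes whose log2 values followed ITGB4 most closely were LRP2, KANSL3, TP53I3, EEPD1 and SEMA4F, with Pearson's r of 0.9998, 0.9997, 0.9997, 0.9995 and 0.9993 among the 11369 named genes whose mean reached 3.44 RPM. The 6 values fall into 2 groups, so such an r mostly records the group difference together with the order within groups. LRP2, the endocytic receptor megalin, had 11.4 ± 1.19 RPM in KD and 3.44 ± 0.549 RPM in control samples (SD, n = 3 each). KANSL3, of a histone acetyltransferase complex, had 71.6 ± 2.80 RPM in KD and 48.3 ± 2.54 RPM in control samples (SD, n = 3 each).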

How the data were processed

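The authors deposited 1 table with a log2 value per gene and sample. Its scale was read from the values as the log2 of RPM plus an offset of 1e-04, since every column has its floor there. Partek and Bowtie (versions not given) and hg38 are named per the submitters' processing notes, although the table's positions are not those of GRCh38, and its gene models, way of counting and use of strand are not stated by the labels. Symbols at several loci (1192 of 22258) held identical values and were used once. Depth was estimated from the step between low values, of which 74.4% to 76.6% lay within 0.02 reads of a whole number, too few for count models. The floor of 3 reads was 0.105 to 0.147 RPM.

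A filter kept 15496 genes whose mean reached 0.688 RPM. They were tested on the log2 values as deposited with limma 3.58.1 in R 4.3.3 (lmFit, then eBayes with a trended prior), KD minus control, 3 samples each and two-sided. P-values were adjusted by Benjamini-Hochberg across these genes, with a threshold of 0.05. The step was checked on simulated data. Ratios of 2 genes in a sample were tested with exact two-sided permutation tests over samples, and adjusted over 10 ratios, of which 8 are given. 1 gene and the ratios that hold it are not reported here. Rose and fell are used of genes past the threshold. Intervals of counting error were not added, and the spread is the SD over samples.

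The genes and lists were chosen with earlier results of these data known. The rule for naming genes covered ALDH1B1, the 9 genes, the related lists and, for ITGB4, the 5 named genes of highest correlation. ADRM1 and POLR2L were named for their overlap with LAMA5 and CD151. The labels do not say whether replicate numbers pair the samples. Deviations from group means gave no sign of pairing, with correlations of -0.05, -0.06 and -0.13 across genes for numbers 4, 5 and 6. With so few samples this cannot exclude it, and the main fit took the samples as unpaired. Alternatives covered the pseudocount, the filter, the scaling, the variance prior, a replicate block and leaving out each sample. Promoter windows are from RefSeq (GRCh38.p14) and coding lengths from GENCODE 29. RefSeq windows were matched for 6 of the 9 genes. ITGB4, PLEC and CD151 had no entry. Figures were drawn with matplotlib 3.10.9.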

Additional observations from a re-analysis of the deposited data

How the results depend on the processing

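Of the 8 genes called among the 9, 7 (all but CD151) kept their direction and their call under all 16 alternatives, and 5 genes rose under every alternative. The size of the p-values depended on the variance model: the limma adjusted p of ITGB4 was 0.00126 without a variance trend and 1.94e-22 with the replicate block. The number that fell was 2 to 4, because CD151 lost its call under 5 alternatives and PLEC gained one under 6. CD151 had a log2 fold change of -0.11 (limma adjusted p = 0.0960) under quantile normalization and an adjusted p of 0.0602 without a variance trend, and PLEC -0.22 (limma adjusted p = 0.00571) with median-of-ratios rescaling. ALDH1B1 ranged from -0.86 to -0.74 and stayed past the threshold. Of 37 other named genes, 23 of 30 calls held under every alternative and 6 of the other 7 genes gained one under some. LAMB1 alone changed sign, at 0.00508 without control replicate 5, with log2 fold changes of -0.18 to 0.01 when each sample was left out in turn. With the replicate number as a block, although deviations gave no sign of pairing, 5481 genes passed in place of 6480. CD151 (limma adjusted p = 0.0862), ITGB1, RPSA, CD63 and KRT5 then lost their calls, and the causes were not tested. When each sample was left out in turn, 2904 to 3455 genes rose and 2025 to 3738 fell. No scaling moved the median log2 fold change of all genes by over 0.1. The ratio of ITGB4 to ITGA6 differed by 1.34 to 1.42 on the log2 scale under its 8 alternatives. With 3 samples a group, exact permutation tests cannot go below 0.1, nor the paired version below 0.25, so they say nothing about stability. Transcript forms of LAMA3, DST and ITGB4 cannot be told apart in gene-level values.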
